A study of Mus musculus with 2 samples.

Results

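The S100 genes encode small calcium-binding proteins, and 10 of them were followed here in a mouse rectal carcinoma line and in cells of that line recovered from lung tumours. Members were all probe sets that the platform annotation assigns to S100a1, S100a4, S100a6, S100a8, S100a9, S100a10, S100a11, S100a13, S100a14 or S100a16 and to no other symbol, which gave 13 probe sets of 9 genes among 45037 probe sets. S100a11 has no value here, because the probe set listed for it is shared between 3 symbols. Parental CMT-93, labelled normal CMT-93 cell, was compared with CMT-93-PM1, grown from lung tumours that were taken 8 weeks after CMT-93 cells had been injected into the tail veins of female C57BL/6 mice aged 6 weeks. Injection into a vein delivers cells to the lung without growth in or escape from a primary tumour. Each line was profiled once, from 6 µg of total RNA on 1 array, so every difference below describes a pair of cultures and has no replicate error, no test and no p-value. The series asked which genes differ between cells that grew in the lung and the line they came from.

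S100 proteins carry a pair of EF-hand calcium-binding loops and mostly work as dimers. Calcium opens a surface by which they bind annexins, myosin, receptors or enzymes inside the cell, and several are also released and act on cell-surface receptors. S100A4 is known for its link to motility and metastasis, and the S100A8/S100A9 pair (calprotectin), stored in neutrophils, is a stool marker of intestinal inflammation.

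Values are deposited log2 signals, and ratios are lung-recovered minus parental on the log2 scale. A signal at or under the 40th percentile of its array (the floor, 4.69 log2 for parental and 4.59 for lung-recovered cells) was treated as too dim to measure. Where a gene had several probe sets, the one with the highest mean signal stands for it. The others are given beside it for the S100 members. For other genes they are given only in part, so a single value does not mean a single probe set. Median signals were 5.36 and 5.26 log2, and 13332 of 18193 genes were above the floor on at least 1 array. Keratin and epithelial adhesion genes were bright on both arrays (Krt8 at 11.98 and 12.54, Krt18 at 11.96 and 12.88, Epcam at 10.36 and 11.20, Cdh1 at 12.66 and 12.52). Of the markers of intestinal epithelium, the cadherin gene Cdh17 read 5.77 and 6.77, a ratio of 1.0 at the 2-fold line that was 0.59 with a floor at the 60th percentile and 0.61 with 50 added to each linear signal. Cdx2 was dim (5.24 and 5.08) and Cdx1, Krt20, Vil1 and Lgals4 were at the floor on both. Epithelial genes were thus bright in both lines. The list of 11 intestinal markers includes those bright genes and Krt19 (12.72 and 12.98). Of its other genes, 4 were not detectable in either line, and Cdx2 and Cdh17 were far dimmer than the bright ones.

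Of the 10 S100 genes, 7 were above the floor on both arrays. S100a1 and S100a4 were lower in the lung-recovered line by 2-fold or more, 0 members were higher by 2-fold or more, and the other 5 lay within 2-fold. Over all measured genes 929 of 13332 (6.97%) passed 2-fold, 340 downward (2.55%) and 589 upward (4.42%). The members' log2 ratios ran from -1.51 to 0.32 with a median of -0.17, 3 above 0 and 4 below, while the median over all measured genes was 0 with 49.2% above 0 and 48.7% below. In gene order S100a1, at -1.51, adjoins S100a13, at -0.34.

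**Figure D1:**
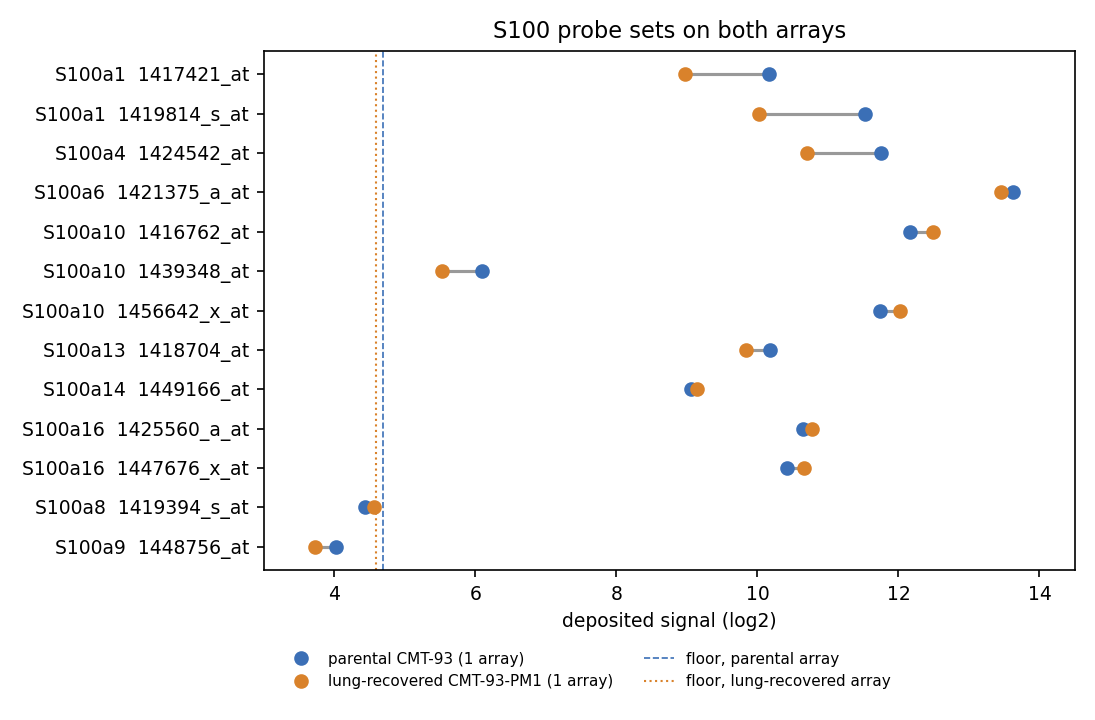
Deposited log2 signal (x axis) of each of the 13 S100 probe sets (rows) on the parental array (blue) and the lung-recovered array (orange), 1 array each, with the floor of each array as a vertical line. Both S100a1 probe sets and that of S100a4 sit to the left in the lung-recovered line, and S100a8 and S100a9 lie at or under the floors.

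S100a1, best known from heart and skeletal muscle, where its protein tunes calcium release and reuptake, had the largest difference among the measured members. Its brighter probe set (1419814_s_at) read 11.53 in parental cells and 10.02 in lung-recovered cells, a ratio of -1.51 or 2.85-fold lower. The other (1417421_at) read 10.17 and 8.98, 2.28-fold lower. A suffix _s or _x marks probes that can match related transcripts, so the second value is the one free of that limit. Both probe sets were thus lower past 2-fold, and their ratios had an SD of 0.23, against a median SD of 0.18 between probe sets of 1 gene. Among the 1334 measured genes in the brightest of 10 equal bins of mean signal, only 4, S100a1 included, had a ratio of -1.51 or lower.

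S100a4, also called metastasin, encodes a protein that binds the tail of non-muscle myosin IIA and is carried by motile cells and fibroblasts. It has 1 probe set (1424542_at), at 11.75 and 10.70, so it was 2.07-fold lower in the lung-recovered line. In the same brightest bin 12 of 1334 genes had a ratio of -1.05 or lower. The ratio lies close to the 2-fold line. Scaling both arrays to equal medians, which moves every ratio above the floor up by 0.10, put S100a4 at -0.95, inside 2-fold. S100a4 was lower under all 9 alternatives run, and past 2-fold under 8 of them. Fewer cells with the transcript and less transcript per cell cannot be told apart in RNA from a whole culture.

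The bases before the transcription starts of these genes are shown because S100a1 and S100a4 have neighbours that differed much less. S100a1 and S100a13 start head to head, and the first sequence is the whole stretch between their starts (chr3:90514331-90514434, minus strand, read towards S100a1). S100a4 and S100a6 both lie on the plus strand with S100a5 between them, and the 250 bases before each start are given (chr3:90603520-90603769 and chr3:90612644-90612893). All are from RefSeq on GRCm38.p6, and capitals mark matches to the motifs named after them.
S100a1 to S100a13: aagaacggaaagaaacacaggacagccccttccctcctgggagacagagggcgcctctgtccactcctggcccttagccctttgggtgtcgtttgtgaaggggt
S100a4: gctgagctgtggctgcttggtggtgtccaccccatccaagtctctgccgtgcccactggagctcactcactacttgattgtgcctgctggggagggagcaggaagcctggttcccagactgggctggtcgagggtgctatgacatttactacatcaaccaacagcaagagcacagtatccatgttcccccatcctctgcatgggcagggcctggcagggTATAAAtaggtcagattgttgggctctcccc
S100a6: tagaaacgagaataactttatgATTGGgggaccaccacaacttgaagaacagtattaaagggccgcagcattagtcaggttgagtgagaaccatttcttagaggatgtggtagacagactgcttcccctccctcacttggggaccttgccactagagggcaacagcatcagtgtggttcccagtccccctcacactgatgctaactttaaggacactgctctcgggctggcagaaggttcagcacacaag
Motifs searched on both strands were TATAAA (site of the TATA-binding protein), GGGCGG (the Sp1 GC box), CCAAT (bound by NF-Y), TGANTCA (AP-1), CACGTG (E-box) and CTTTGAT (TCF/LEF), and no match in an S100 member overlapped a match to another of them. The search covered windows of 300 bases, from 250 before the start to 50 after it. RefSeq windows matched 8 of the 10 members, 9 windows in all, and S100a10 and S100a14 have none in the table. In the S100a4 window TATAAA begins at position -31 from the start, and the S100a8 window holds it at -30. TATAAA was found in 3 of the 9 member windows and in 13.6% of all 32851 windows. The third member match, in the S100a9 window, begins at the start itself (position 1) and not before it. The windows of S100a1 and S100a13 held none of the 6 motifs, and that of S100a6 held CCAAT on the minus strand at -228 and CACGTG at 15 after the start. By motif, the shares of all windows were 35.7% for the GC box, 37.4% for the CCAAT box, 7.81% for AP-1, 7.15% for the E-box and 3.73% for TCF/LEF. Among the member windows, 3 held the GC box, 2 the AP-1 motif, 2 the E-box, 1 the CCAAT box and 0 the TCF/LEF motif.

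S100a13, whose protein takes part in the export of the growth factor FGF1, read 10.18 and 9.84 by its only probe set (1418704_at), a ratio of -0.34 or 1.27-fold lower. With starts 104 bases apart, S100a1 was 2.85-fold and S100a13 1.27-fold lower. In the S100a13 signal bin, 187 of 1333 genes had a ratio of -0.34 or lower. This member was within 2-fold under every alternative run, from -0.42 to -0.24.

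S100a6, or calcyclin, binds the ubiquitin-ligase adaptor CacyBP and several annexins. Its probe set (1421375_a_at) read 13.63 and 13.46, a ratio of -0.17 or 1.13-fold lower. S100a4 and S100a6, which lie 1 gene apart, thus had ratios of -1.05 and -0.17. Between them S100a5 read 4.82 and 4.74, just above the floors, and had a ratio of -0.08 that turned positive (0.02 to 0.03) after scaling to equal medians, quantile normalization or lowess. S100a3, which comes before S100a4 in gene order, read 7.81 and 7.33, a ratio of -0.48.

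S100a10 (p11) is the family member that has lost calcium binding, and it forms a tetramer with annexin A2 that binds plasminogen at the cell surface. Its brightest probe set (1416762_at) read 12.17 and 12.49, 1.25-fold higher in the lung-recovered line. Another (1456642_x_at) read 11.74 and 12.02, 1.21-fold higher, while a dim one (1439348_at) read 6.09 and 5.53, 1.47-fold lower. The probe sets of S100a10 thus differed in direction, with an SD of 0.50 between them. Of the genes in the same signal bin 19.0% had a ratio of 0.32 or higher.

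S100a14 and S100a16, made by epithelia, adjoin each other between S100a13 and S100a3. S100a14 (1449166_at) read 9.06 and 9.14, a ratio of 0.08 that was 0 after quantile normalization and turned to just below 0 after lowess. S100a16 read 10.64 and 10.77 by 1 probe set (1425560_a_at) and 10.42 and 10.66 by the other (1447676_x_at), 1.09-fold and 1.18-fold higher. Ratios as high as those of S100a14 and S100a16 were held by 48.5% and 40.1% of genes of like signal.

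**Figure D2:**
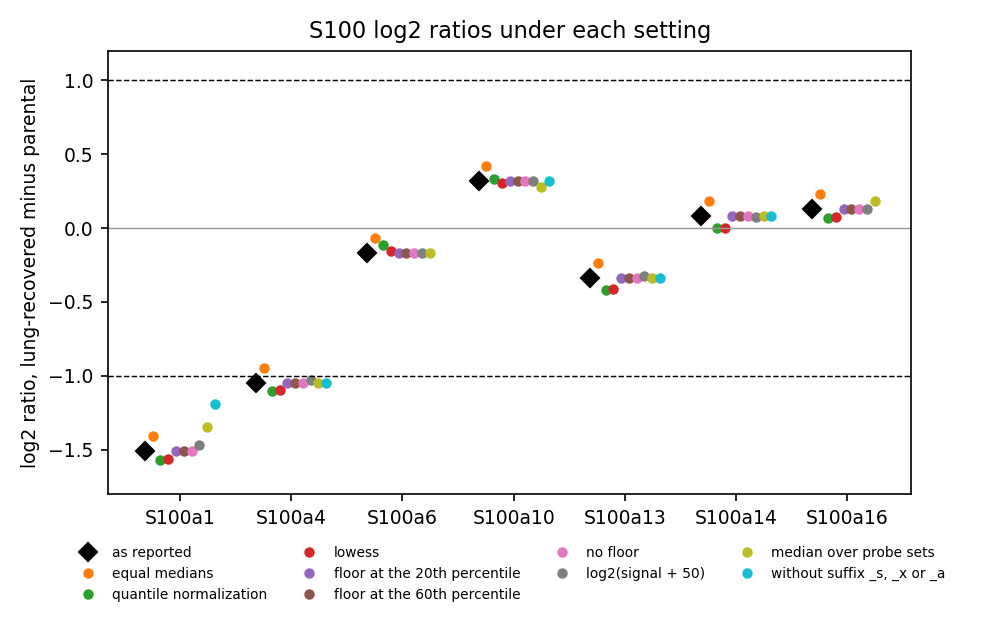
Log2 ratio, lung-recovered minus parental (y axis), of the 7 measured S100 members (x axis) as reported (black diamonds) and under the 9 processing alternatives (coloured points), with dashed lines at 2-fold. S100a1 stays between -1.57 and -1.19, and S100a4 crosses the line only with equal medians, at -0.95.

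S100a8 and S100a9 were not measured. S100a8 (1419394_s_at) read 4.43 and 4.57 and S100a9 (1448756_at) 4.02 and 3.73, at the floor on both arrays. Their transcripts were not detectable at this floor in either line. Parental cells had 4 of 10 neutrophil markers above the floor and lung-recovered cells 3. Their summed linear signal, which includes probe sets at the floor, was 462 and 216. Mpo, Camp, Cxcr2, Itgam, Mmp8 and Ptprc were at the floor throughout. The lactoferrin gene Ltf, which some epithelia also express, read 8.10 and 5.38 and was 6.59-fold lower. Ltf gave 274 and 41.6 of the summed signals, so their difference is mostly that of Ltf.

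**Figure D3:**
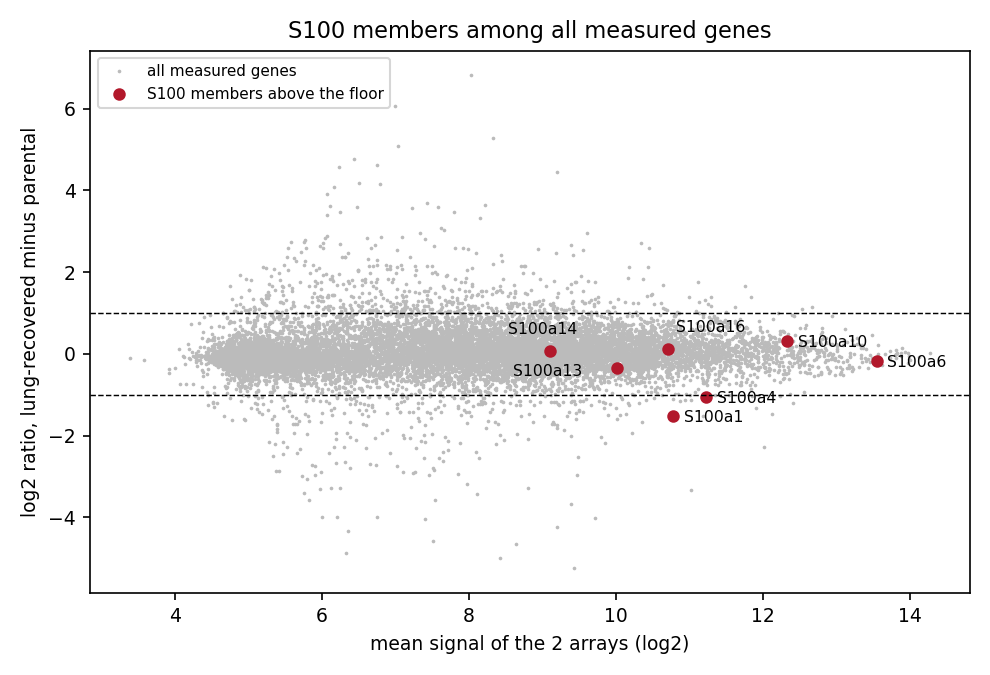
Log2 ratio, lung-recovered minus parental (y axis), against the mean log2 signal of both arrays (x axis) for all 13332 measured genes (grey) and the 7 S100 members above the floor (red), with dashed lines at 2-fold. S100a1 and S100a4 lie below the lower line among bright genes, and the other 5 lie within the grey band.

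Other cell types with S100a4 were looked at through their markers. For fibroblasts and mural cells, 5 of 11 markers were above the floor on each array, with summed linear signals of 379 and 313, and Col1a1, Col3a1, Lum, Pdgfra, Postn and Thy1 were at the floor on both. For macrophages, 5 of 10 were above the floor on each, with sums of 1836 and 1010. Cd14 alone gave 1585 and 564 of these sums, so they rest largely on 1 gene. Of the 5 measured macrophage genes, 3 had ratios above 0 and 1 below. Adgre1, C1qa, C1qb, Mrc1 and Ptprc were at the floor on both arrays, while Cd14 read 10.63 and 9.14, Cd68 5.23 and 7.05 and Csf1r 6.42 and 7.54. The other probe sets of Csf1r were within 2-fold (ratios of 0.78 and 0.02). For endothelium, 3 of 8 were above the floor on each array, with sums of 987 and 1151. Pecam1, Emcn, Tie1 and Vwf were at the floor on both. Cdh5 (4.21 and 9.30) and Tek (8.57 and 3.43) differed in opposite directions, while Esam read 8.93 and 8.70 and Kdr 5.94 and 5.89. A dimmer Cdh5 probe set read 3.98 and 5.52. For lung epithelium, 6 of 9 were above the floor on each, with sums of 2145 and 1373, and Scgb1a1 and Sftpa1 were at the floor on both. Of the 7 measured lung genes, 6 had ratios below 0 and 1 above, with a median of -0.58. Aqp5 read 10.68 and 10.01 and gave 1641 and 1031 of the sums, and Napsa read 7.74 and 5.69. Rtkn2, the only one above 0, read 3.58 and 6.50, at the floor in parental cells. Cd14 and Ager are also in the list of receptors described last. The part of any of these cell types in the S100 ratios was not tested.

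The S100 members lie in 2 groups on chromosome 3, one from S100a1 to S100a9 and one of S100a11 and S100a10. From S100a1 to S100a6 the ratios ran -1.51 (S100a1), -0.34 (S100a13), 0.08 (S100a14), 0.13 (S100a16), -0.48 (S100a3), -1.05 (S100a4), -0.08 (S100a5) and -0.17 (S100a6). The lower genes S100a1 and S100a4 are thus separated by genes within 2-fold. Of the 15 protein-coding genes before S100a1, 13 were measured and 0 passed 2-fold, with a median of -0.02. The closest of them, Chtop, read 11.81 and 11.58.

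Between S100a9 and S100a11 lie 56 protein-coding genes, mainly of the cornified envelope. Of these 22 were measured, 3 were lower and 0 higher by 2-fold or more. Over all measured genes 2.55% were lower and 4.42% higher, which also serves for the counts in the lists below. The 3 lower genes here were Lor (10.17 and 8.81), Sprr2h (8.94 and 5.97) and Sprr1b (10.97 and 6.32), while Sprr1a read 13.81 and 13.82. Sprr genes have close relatives, so a signal may include those of other members.

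The rest of the family was mostly not detectable. Of 14 other S100 and fused-type S100 genes listed, 10 had a probe set of 1 symbol and 3 were above the floor, S100a3, S100a5 and S100b. S100b, a glial and melanocyte protein, read 4.78 and 4.90, and its dimmer probe set was at the floor. The intestinal calcium buffer gene S100g read 4.53 and 3.61, at the floor in both lines. S100a7l2 and the fused-type genes Flg, Hrnr, Rptn, Tchh and Tchhl1, which build the epidermal barrier and hair, were also at the floor. None of the measured others passed 2-fold.

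Intracellular partners of S100 proteins had 27 of 30 genes above the floor, of which 2 were higher and 2 lower by 2-fold or more, with a median ratio of 0.18. That median was 0.05 by the median over probe sets or without suffixed probe sets, and up to 0.28 with equal medians. Of the higher genes, 1 in place of 2 passed 2-fold after quantile normalization, lowess, the offset of 50 or the median over probe sets. Of the lower genes, 1 in place of 2 did with the offset or without suffixed probe sets. Annexin A2, the partner of S100a10, read 12.87 and 13.12 by its brightest probe set, and S100a10 12.17 and 12.49, so the pair had ratios of 0.25 and 0.32. Anxa1, which binds S100A11, read 13.21 and 13.42, but its dim probe set was lower (7.53 and 7.20). Ahnak, a scaffold held by the annexin A2 and p11 complex, read 12.37 and 12.65 by its brightest probe set and was 3.16-fold and 3.58-fold higher by other probe sets (8.74 and 10.40, 6.92 and 8.76). Its remaining dim one was 1.57-fold lower, so the size of its difference is not settled.

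Among the myosins that S100A4 binds, Myh9 (non-muscle myosin IIA) read 11.39 and 11.75, 1.28-fold higher, where S100a4 itself was 2.07-fold lower. Myh10 read 9.78 and 10.48, and Myh14 9.28 and 10.54 or 2.40-fold higher. Cacybp, the partner of S100A6, read 10.81 and 10.72, a ratio of -0.09 that became 0.01 with equal medians. Dlc1, whose protein binds S100A10, read 10.09 and 8.57, 2.87-fold lower, and was 3.18-fold and 2.68-fold lower by its other measured probe sets. By its brightest probe set Anxa6 was 2.07-fold higher, with others from 2.48-fold higher to 1.12-fold lower. Anxa8 was 2.79-fold lower by one probe set and 1.65-fold by the other. The calcium release channel genes Ryr1 and Ryr2, targets of S100A1 in muscle, were at the floor on both arrays, whereas the calcium pump gene Atp2a2, another such target, read 12.16 and 12.21 by its brightest probe set.

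Receptors and surface partners of released S100 proteins had 15 of 20 genes above the floor, of which 0 were higher and 2 lower by 2-fold or more, with a median ratio of 0.04 that lay just below 0 with other floors or the offset of 50 and was 0.14 with equal medians. With equal medians 1 gene, Egfr, was also higher (a ratio of 1.0 by its brightest probe set). As reported, the other measured Egfr probe sets ran from 0.71 to -0.41, and the median over probe sets was 0.365. Both lower genes belong to the Toll-like receptor complex through which S100A8/S100A9 signals. Tlr4 read 8.64 and 7.14, 2.83-fold lower, and its other measured probe sets were 2.41-fold and 2.40-fold lower. Its co-receptor Cd14 read 10.63 and 9.14, 2.81-fold lower, and the adaptor Ly96 8.07 and 7.56, 1.42-fold lower. Tlr4 and Cd14 were past 2-fold under all 9 alternatives, and the ligand genes S100a8 and S100a9 were at the floor in both lines. Ager, which encodes the receptor RAGE, read 6.15 and 5.45 by one probe set and 5.30 on both arrays by the other. Bsg (basigin), another S100A9 receptor, read 12.08 and 12.12, and Emb (embigin) 5.45 and 5.54. Plat, which encodes the tissue plasminogen activator that p11 is known to bind, read 10.42 and 9.46 by its brighter probe set, 1.95-fold lower. That ratio passed 2-fold after quantile normalization and lowess, but was -0.86 with equal medians and -0.91 with the offset of 50. The dimmer probe set, at the floor in lung-recovered cells, had a ratio of -0.31, and the median over probe sets was -0.635.

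**Figure D4:**
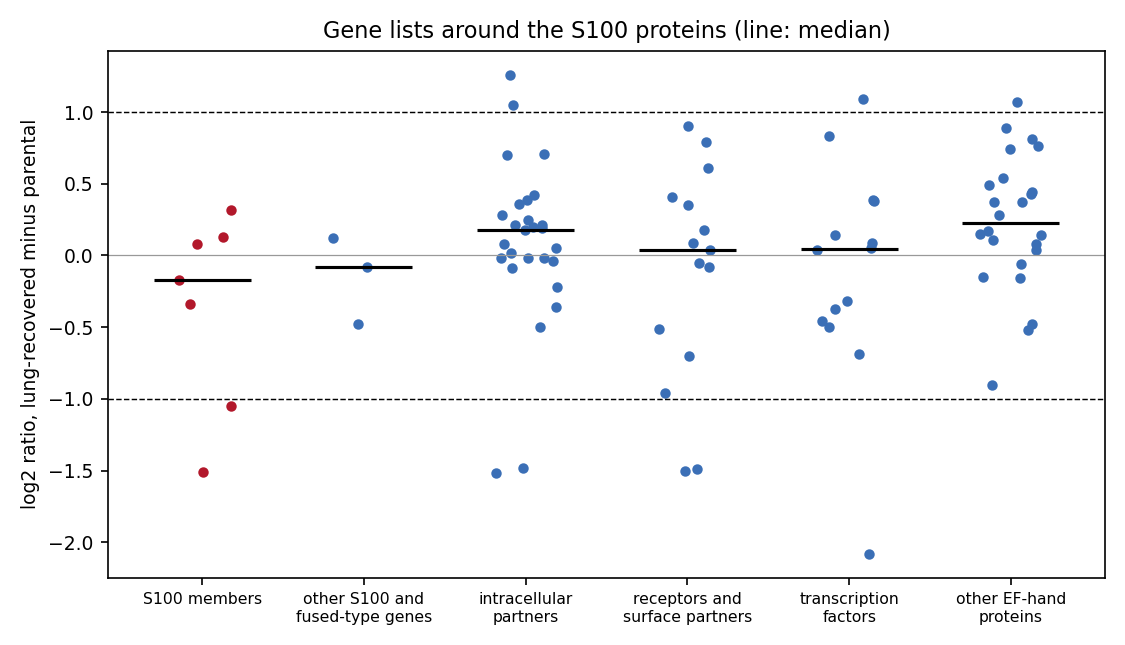
Log2 ratio, lung-recovered minus parental (y axis), of each measured gene (points) in the list of S100 members and in 5 lists of related genes, with a bar at each median and dashed lines at 2-fold; horizontal scatter is arbitrary. The members' median is -0.17, that of the intracellular partners 0.18 and that of receptors 0.04.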

How the data were processed

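Total RNA of 1 parental and 1 lung-recovered culture was labelled with biotin and hybridized to 1 Affymetrix array each, per the labels' protocols. The authors deposited log2 signals with 2 decimals for 45037 probe sets. The base was taken from the values, since base 2 puts the brightest signals at 19484 and 19893. MAS5 appears without a stated role among the submitters' processing notes, and the scaling between arrays is not given in the sources. Values were used as deposited. Probe sets were named through the platform annotation, with symbols updated by Entrez identifier to GRCm38.p6. Of the 35877 probe sets listed, 34945 had 1 symbol and 932 had several, which were not named. Genes were counted at 2-fold or more. A ratio with 1 side at the floor is a bound, computed against that floor. With 1 array per group no limma or other test was possible, and a single array limits the precision of every value.

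The members and gene lists were chosen with earlier results of these data known. Named genes are all members and other S100 genes on the array, list and neighbouring genes past 2-fold, and the best-known partners of the members. Other genes were chosen after their values were seen. Of 191 list entries 175 matched, Anxa11 and Trp53 not among them. The 9 alternatives were equal medians, quantile normalization, lowess (span 0.3), floors at the 20th and 60th percentile, no floor, log2(signal + 50), the median over probe sets, and leaving out suffixed probe sets (_s, _x or _a). Scripts used Python 3.11.15, numpy 2.4.6, pandas 2.3.3, statsmodels 0.14.6 and matplotlib 3.10.9. The ratios and counts were run on simulated data with large changes in bright genes, which does not bear on calls near the 2-fold line.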

Additional observations from a re-analysis of the deposited data

How the results depend on the processing

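Most results kept their direction and their side of the 2-fold line. With equal medians the number of S100 members past 2-fold was 1 in place of 2, since S100a4 stood at -0.95, and it was 2 under the other 8 alternatives. Adding 50 to each linear signal in place of the floor left 533 genes past 2-fold of 18193, against 929 of 13332, because an offset shrinks the ratios of dim genes. S100a1 was -1.19 without suffixed probe sets, which leaves its dimmer probe set. The members' median stayed below 0, from -0.34 without suffixed probe sets to -0.07 with the offset or equal medians. These medians cover 5 members without suffixed probe sets, 9 with the offset and 7 with equal medians. With equal medians the median over all measured genes was 0.1, against 0 as reported. S100a6, S100a8 and S100a16 have only suffixed probe sets, so they have no value without them. With a lower floor or none, S100a8 had a ratio of 0.14 and S100a9 of -0.29, at signals where order is not reliable. Of the genes in the lists reported past 2-fold, Anxa6 was inside it under 4 alternatives (0.56 to 0.99), Anxa8 under 2 (-0.96 and -0.72), Hpcal1 under 3 (0.98 to 0.99), Csf1r under 2 (0.80 and 0.78), Cdh17 under 2 (0.59 and 0.61), Nfe2l2 by the median over probe sets (0.75), and Cd68 and Rtkn2 with the 60th percentile floor (0.87 and 0.32). S100a4 apart, the other list genes past 2-fold stayed past it under every alternative that gave them a value. No paired analysis was possible because each group has 1 array.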

Other observations

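Among transcription factors known to act on S100 genes, 14 of 16 genes passed the floor, with 1 higher and 1 lower by 2-fold or more. Cebpd, which encodes a C/EBP factor of the acute-phase response, read 9.84 and 7.76 by its brightest probe set, 4.23-fold lower in the lung-recovered line, and 6.20 and 5.55 by a dimmer one, 1.57-fold lower. Cebpb, its relative, was within 2-fold in the other direction, at 11.06 and 11.89, or 1.78-fold higher, and 1.97-fold by its other probe set. Cebpa was at the floor on both arrays. Nfe2l2, the oxidative stress factor NRF2, read 10.12 and 11.21, a 2.13-fold higher signal, with a dimmer probe set at 1.33-fold. Ctnnb1, the beta-catenin gene, read 13.09 and 13.47, and its other probe sets gave ratios of 0.41 and 0.37. Klf4 read 10.18 and 9.49.

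Other EF-hand calcium-binding proteins had 24 of 31 genes above the floor, with a median log2 ratio of 0.23 (0.07 to 0.33 under the alternatives), 18 ratios above 0 and 6 below. Hpcal1, which encodes a neuronal-type calcium sensor, was 2.10-fold higher (8.79 and 9.86), and 0 genes were 2-fold lower by their brightest probe set. Those counts rest on the choice of probe set, since the median over probe sets gave 2 higher (Hpcal1 and Actn1) and 1 lower (Lcp1). After quantile normalization, lowess or the offset of 50, 0 were higher. The actin crosslinker gene Actn1 read 11.01 and 11.82 by its brightest probe set, 1.75-fold higher, and was 2.06-fold and 2.30-fold higher by its other probe sets. The plastin gene Lcp1 read 7.0 and 6.1, 1.87-fold lower, and 6.33 and 4.88 by its dimmer probe set, 2.73-fold lower. Gca (grancalcin) read 8.07 and 8.96 and the calpain gene Capn2 9.95 and 10.69, both within 2-fold. The S100 members had a median of -0.17, and the difference between the lists was not tested.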
